A study of Homo sapiens with 4 samples.

Results

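The AC16 line, an established human line derived from a fusion of adult ventricular heart cells and transformed fibroblasts, is labelled cardiomyocyte. The comparison is between 2 time points of one exposure, cells kept for 30 min and cells kept for 360 min in 10 nM doxorubicin, an anthracycline that slides between DNA bases and traps topoisomerase II on DNA. These are 2 of the 4 RNA libraries of the series. The serum-containing medium of the treated cells had been taken off, the cells were rinsed with PBS, and the drug was given in fresh serum-free DMEM. The 30 and 360 min groups therefore share the line, the drug, its dose and the serum-free medium, and they differ in the time spent in them. Time in the drug, time without serum and time since the medium change cannot be told apart. The untreated library (0 min) and the 10 min library enter the scaling, the naming of loci and the marker check. Otherwise they serve only for levels or ratios printed beside the comparison.

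The deposited gene table holds 66839 loci. Of these, 11746 reached 5 CPM (a locus's counts scaled to the size of its library) in at least 1 of the 2 libraries and were compared, and 10386 of them carry a gene name. There is 1 library per time, with 55156612 to 56875881 counts each, so no difference has a replicate check, no test was run, and each ratio compares these 2 libraries. The range printed after a ratio or fold is a 95% interval for counting error and holds no spread between cultures. A locus was called higher or lower at 360 min when it differed at least 2-fold, had at least 5 CPM in 1 library and had an interval that excluded 1. The interval alone separates many loci: it lay above 1 at 24.3% of the compared loci and below 1 at 22.9%.

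The labelled cell type was checked against its markers. Of 16 cardiomyocyte markers, 8 reached 1 CPM in at least 1 of the 4 libraries when annotated transcripts were summed. ACTC1 and PLN were listed at 0 in all 4, and TNNT2, MYH6, MYH7, NPPA, TNNI3 and ACTN2 stayed below 1 CPM, while MYL2 and NKX2-5 were present. The summed level of the 16 was 246 CPM at 30 min and 173 CPM at 360 min, and without NPPB, which was at 138 and 69.7 CPM by this sum, it was 108 and 103 CPM. The 13 fibroblast and matrix markers summed to 11899 and 11919 CPM, with DCN and LUM at 0 in all libraries. The sums were 586 and 547 CPM for 5 epithelial markers, 37.4 and 33.7 CPM for 6 immune markers and 5.15 and 7.19 CPM for 6 endothelial markers. Their part in the differences below was not tested.

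Immediate early genes are transcribed within minutes of a stimulus from factors already present in the cell, such as serum response factor and its partners that are phosphorylated by MAP kinase. Many encode transcription factors (EGR1, FOS, JUNB, ATF3), and others encode phosphatases and Sprouty proteins that shut the same kinase pathway off again. Their transcripts are usually short lived, because AU-rich sequences in the 3′ untranslated region recruit decay factors of the ZFP36 family. A pulse of such genes is known after growth factors and many kinds of stress.

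Promoter sequence of 3 genes with lower levels at 360 min is shown first, because it holds motifs known from studies of such pulses. The part of these motifs in the levels below was not tested. Capitals mark the CArG box, the motif of serum response factor, in EGR1, and the cAMP response element TGACGTCA, a motif of the CREB and ATF family, in DUSP1 and PPP1R15A. The sequences are RefSeq's (GRCh38.p14), run 5′ to 3′ on the gene's strand and lie at chr5:138465359-138465478 (plus strand), chr5:172771273-172771360 (minus strand) and chr19:48872323-48872410 (plus strand). They were picked for their matches after the values were known.
EGR1: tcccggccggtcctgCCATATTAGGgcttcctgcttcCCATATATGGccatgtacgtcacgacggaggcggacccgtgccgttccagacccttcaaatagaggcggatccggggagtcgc
DUSP1: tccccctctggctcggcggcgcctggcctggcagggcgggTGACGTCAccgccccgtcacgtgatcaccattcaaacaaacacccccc
PPP1R15A: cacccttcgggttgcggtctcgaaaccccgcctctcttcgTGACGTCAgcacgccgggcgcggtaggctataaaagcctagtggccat
In the windows from 250 bases before to 50 bases after the start, searched on both strands, a CArG box was found in 4 of 111 lower genes with a window (3.6%: EGR1, FSTL3, RND3 and RCAN1, the last pair named only for this match). It was found in 1 of 96 higher genes (1.04%) and in 1.02% of 8234 compared genes. TGACGTCA was found in 5 lower genes (4.50%), 4 higher genes (4.17%) and 3.64% of compared genes. TGANTCA, which allows any base in the middle and so is wider than the motif TGA(C/G)TCA of FOS and JUN dimers, was also searched. It was found in 9 lower genes (8.11%), 4 higher genes (4.17%) and 4.38% of compared genes, and in 7.76% of all 27305 promoters. The E-box CACGTG (9.91%, 6.25% and 10.4%) and the ETS motif CCGGAAGT (9.91%, 8.33% and 9.34%) were about as frequent among lower genes as among compared genes. The EGR motif GCGTGGGCG was found in 0 lower and 0 higher genes and 1.39% of compared genes, and a palindrome of 10 bases that holds the inverted GAA repeat of heat shock elements in 0 lower and 0 higher genes and 0.571% of compared genes. These are matches of letters in a window and not binding sites.

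The 3′ untranslated regions were searched for TTATTTATT, a core of the AU-rich elements that ZFP36 proteins bind. The nonamer was found in 17 of 123 lower genes with an annotated region (13.8%), in 6 of 106 higher genes (5.66%) and in 9.79% of 9680 compared genes. For each gene the longest annotated region among its coding transcripts was taken, which need not be the one its reads came from. The median region was 1926 bases long among lower genes, 2236 among higher genes and 1436 among compared genes, so the higher genes had the longest median region. The nonamer shares were not scaled for length. The shorter AU-rich motif ATTTA, counted per kb of region, hardly differed, with medians of 1.82 in lower, 1.71 in higher and 1.73 in compared genes. A site from each of 5 lower genes, picked after the matches were known, is shown with its surroundings as GENCODE 29 transcript sequence, with the nonamer in capitals. Counted from the first base of the region, the stretches are bases 636 to 665 in FOS (ENST00000303562), 91 to 120 in DUSP1 (ENST00000239223), 142 to 171 in CSRNP1 (ENST00000273153), 119 to 148 in GDF15 (ENST00000252809) and 200 to 229 in CXCL8 (ENST00000307407).
FOS: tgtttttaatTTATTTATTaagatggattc
DUSP1: gggctggtccTTATTTATTtaacttcaccc
CSRNP1: ttctctggatTTATTTATTtgttttaactt
GDF15: tataagtctgTTATTTATTattaatttatt
CXCL8: atgtaaagtaTTATTTATTtgaatctacaa
These 5 are a part of the 17 lower genes with the nonamer, so a higher level at 30 than at 360 min follows from the choice. Each stood higher at 30 min than in untreated cells, as given gene by gene below, which a choice by the 30 min library favours too. A part of the nonamer in these levels was not tested.

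Of the 11746 compared loci, 179 were lower at 360 min (1.52%) and 135 were higher (1.15%), 314 in all (2.67%). Among the 10386 loci with a gene name 145 were lower (1.4%) and 123 higher (1.18%). The median log2 ratio of all compared loci was 0.0033. The lower named loci had median levels of 10.4, 12.9, 16.4 and 6.01 CPM at 0, 10, 30 and 360 min, and the higher ones 21.3, 21.8, 13.0 and 35.8 CPM. On the log2 scale the lower loci had medians of -1.23 for 360 against 30 min, 0.91 for 30 against 0 min and -0.35 for 360 against 0 min. For the higher loci these were 1.27, -0.91 and 0.27. These comparisons share libraries, and a locus chosen for a difference between 30 and 360 min must stand apart in one of them, so the 3 values are given side by side only. A lower share of reads can come from fewer cells that express a gene or from less RNA per cell, which cannot be told apart in bulk RNA.

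**Figure D1:**
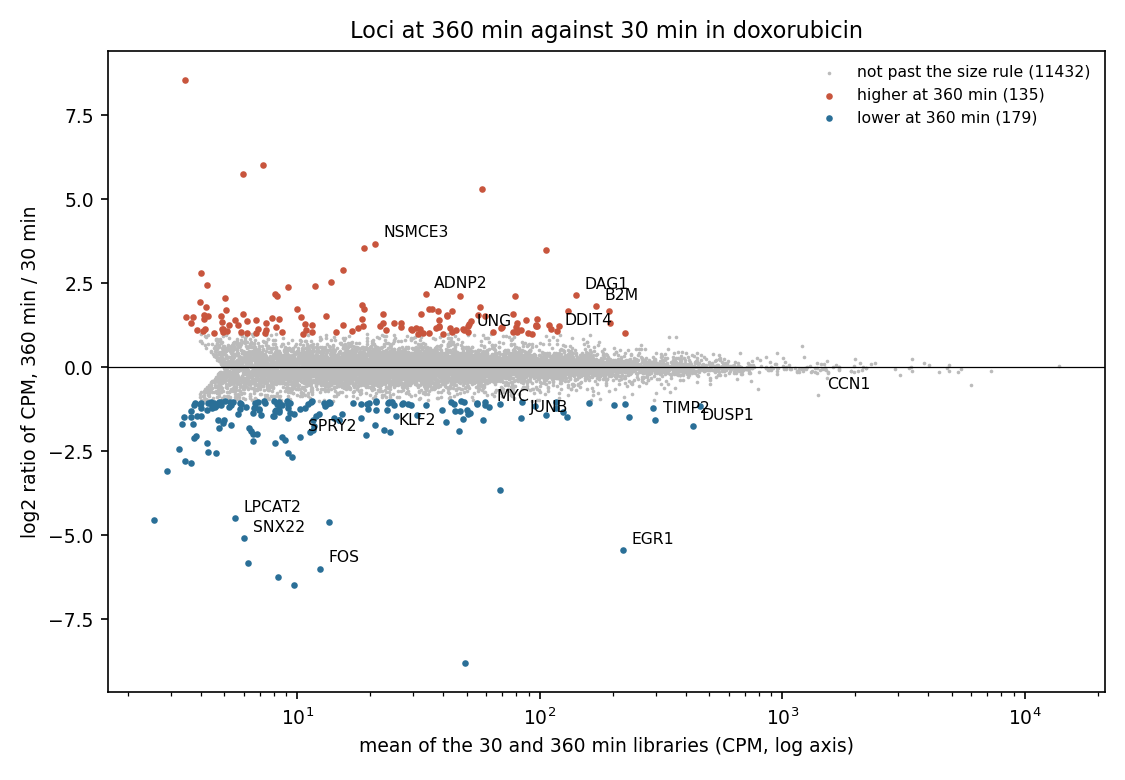
Log2 ratio of CPM (360 min over 30 min) of each compared locus against its mean CPM in the 2 libraries, on a log axis. The 179 lower loci are blue and the 135 higher loci red. EGR1 lies near -5.45 at high abundance, and most of the 11746 loci lie within 2-fold.

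EGR1, a zinc finger transcription factor and the best known immediate early gene, led the lower genes (ENSG00000120738, chromosome 5, 138465490 to 138469315). Its level was 6.72, 83.2, 430.2 and 9.86 CPM at 0, 10, 30 and 360 min, 43.6-fold lower (36.9 to 52.4) at 360 than at 30 min. The 30 min library stood far above the other 3, and the 360 min level was nearest to that of untreated cells. FOS, the leucine zipper partner of JUN in the AP-1 complex (ENSG00000170345, chromosome 14, 75278774 to 75282230), was at 0.408, 8.32, 24.4 and 0.385 CPM, 63.5-fold lower (28.3 to 207) at 360 min. FOS was below 1 CPM in both the untreated and the 360 min library, and its interval is wide. The most counted transcript model of FOS differed between the 2 libraries, and that of EGR1 did not.

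Of the 42 measured immediate early genes (at least 1 CPM and a locus of their own), 10 were lower at 360 min, against 1.52% of all compared loci, and 1 was higher. The list's median log2 ratio was -0.76, beside 0.0033 over all loci. Of its 36 members with at least 5 CPM the interval lay below 1 in 27 and above 1 in 4, against 22.9% and 24.3% of all compared loci. Besides EGR1 and FOS, the lower members were JUNB, ATF3, MYC, KLF2, KLF6, MAFF, SGK1 and CSRNP1. Members of this and the other lists that share a locus with another gene were measured only by annotated transcripts and are not in the counts or medians. The median of the 42 was 0.79 for 30 against 0 min and 0.17 for 360 against 0 min.

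Among the AP-1 and related leucine zipper genes, JUNB (ENSG00000171223, chromosome 19, 12791496 to 12793315) was at 47.7, 105, 124 and 43.9 CPM and 2.83-fold lower (2.58 to 3.11). The stress-induced repressor ATF3 was at 10.8, 12.8, 38.7 and 18.2 CPM and 2.12-fold lower (1.82 to 2.47). Both were highest in the 30 min library, and JUNB ended just below its untreated level. MAFF, a small MAF protein, was at 20.6, 15.7, 27 and 9.54 CPM and 2.83-fold lower (2.32 to 3.49), ending below all 3 other libraries. The AP-1 members JUN, JUND and FOSL1 were short of the 2-fold rule, with ratios of 0.598 (0.573 to 0.623), 0.63 (0.582 to 0.68) and 0.583 (0.543 to 0.627). FOSL2 stood at 0.929 (0.901 to 0.959), so the AP-1 genes differed among themselves.

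The list holds 4 Krüppel-like factors, of which 2 were lower. KLF2 (ENSG00000127528, chromosome 19, 16324817 to 16327874), a factor known from flow-exposed endothelium, was at 5.2, 6.52, 38.1 and 10.1 CPM and 3.76-fold lower (3.12 to 4.58). Its 360 min level lay between the 10 and the 30 min levels. KLF6 was at 120.3, 174, 305 and 143 CPM and 2.13-fold lower (2.02 to 2.25). Neither KLF4, at 1.07 (0.779 to 1.5), nor KLF10, at 1.09 (1.01 to 1.18), was called.

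MYC, the growth-promoting transcription factor, was at 28.5, 64.6, 85.2 and 37.6 CPM and 2.27-fold lower (2.04 to 2.52). CSRNP1, a nuclear protein induced by AXIN1, was at 19.3, 17.1, 55.6 and 23.2 CPM and 2.4-fold lower (2.1 to 2.74). SGK1, a kinase activated through PI3 kinase, was at 28.2, 36.6, 71.4 and 24.6 CPM and 2.9-fold lower (2.56 to 3.29), with another leading transcript model at 360 min. Of SGK1's annotated counts, ENST00000474427 held 32.6% at 30 min and ENST00000367855 47.0% at 360 min, both annotated as retained introns. The coding ENST00000413996 held 30.0% and 26.8%. MYC, CSRNP1 and SGK1 were all highest at 30 min among the 4 libraries. The single higher member was TSC22D1, a leucine zipper regulator known from TGF-beta signalling. It was at 74.1, 109, 23.5 and 53.5 CPM, so the 30 min library was the lowest of the 4, and it was 2.28-fold higher (1.99 to 2.6) with another leading model.

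Most other members had ratios below 1 that were short of the 2-fold rule. The matricellular genes CCN1 and CCN2 stood at ratios of 0.563 (0.551 to 0.575) and 0.539 (0.511 to 0.568), and the EGF receptor ligand HBEGF at 0.556 (0.508 to 0.608). The ratio was 0.553 (0.422 to 0.721) for the orphan nuclear receptor NR4A1, 0.66 (0.619 to 0.703) for IER5 and 0.687 (0.544 to 0.866) for the decay factor ZFP36. A further 5 members stayed below 5 CPM in both libraries yet had intervals below 1 or no counts at 360 min. EGR2 was at 0.142, 1.05, 3.95 and 0.22 CPM with a ratio of 0.0556 (0.0111 to 0.171), and EGR3, which had no counts at 360 min, was at 0.177, 0.488, 2.62 and 0 CPM. FOSB was at 2.01 to 0.568 CPM from 30 to 360 min, NR4A2 at 4.03 to 1.48 CPM and IER3 at 3.68 to 1.5 CPM. MAFK stood at 1.85 (1.69 to 2.03), and IER2, KLF4, GEM, BTG2, CITED2 and ARC had intervals that included 1.

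**Figure D2:**
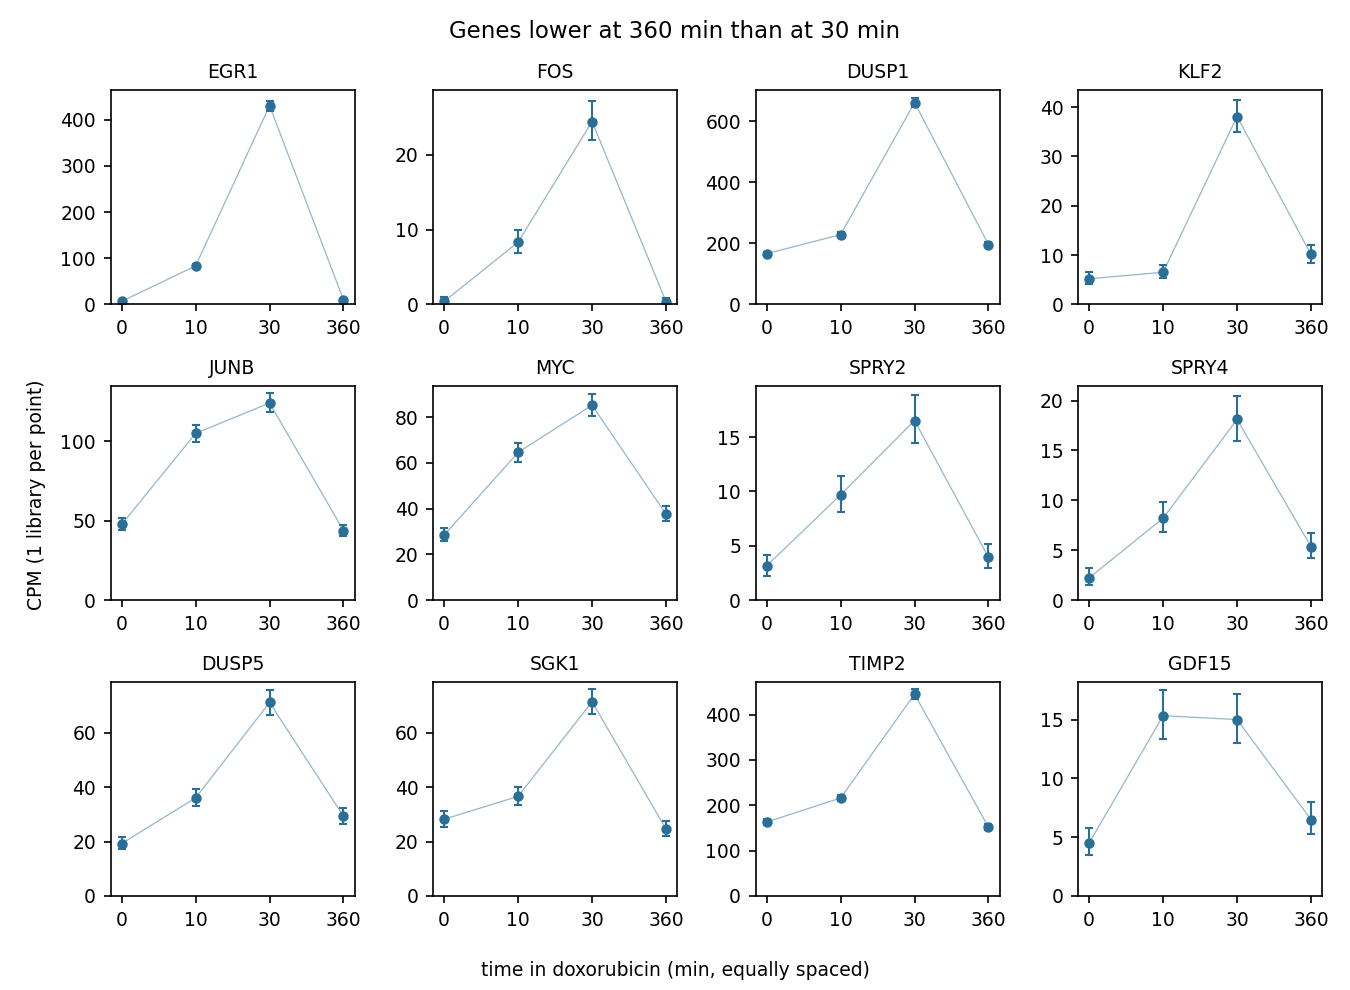
Level in CPM of 12 genes that were lower at 360 than at 30 min, by time in doxorubicin (0 is untreated, times equally spaced, each axis from 0). Points are single libraries, bars are 95% exact Poisson counting intervals, and lines only join the points. All but GDF15 have their highest point at 30 min.

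Feedback inhibitors of the MAP kinase pathway switch the kinases off after a stimulus. Of 18 measured members 6 were lower, against 1.52% of all compared loci, none was higher, and the list's median was -0.43. DUSP1, a nuclear phosphatase of MAP kinases (ENSG00000120129, chromosome 5, 172768090 to 172771195), was at 166, 228, 660.4 and 196 CPM and 3.37-fold lower (3.23 to 3.52). It stood out in the 30 min library and 1 transcript, ENST00000239223, took 100% of its annotated counts in all 4. DUSP5, which acts on ERK in the nucleus, was at 19.3, 36, 71.1 and 29.3 CPM and 2.43-fold lower (2.16 to 2.73). DUSP6, its cytoplasmic counterpart, was at 2.98, 7.55, 8.18 and 2.49 CPM and 3.28-fold lower (2.23 to 4.99).

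The Sprouty and SPRED proteins block RAS and RAF downstream of receptor tyrosine kinases. SPRY2 (ENSG00000136158, chromosome 13, 80335976 to 80340951) was at 3.16, 9.69, 16.5 and 3.94 CPM and 4.2-fold lower (3.1 to 5.74). SPRY4 was at 2.23, 8.21, 18.1 and 5.37 CPM and 3.37-fold lower (2.59 to 4.45). SPRED3 was at 4.15, 11.9, 11.4 and 4.65 CPM and 2.46-fold lower (1.81 to 3.31). SPRY2 and SPRY4 climbed through 10 min to their highest level at 30 min, whereas SPRED3 and DUSP6 were about level at 10 and 30 min. Other feedback genes stood above 1: DUSP10, a phosphatase of p38 and JNK, was at 1.45 (1.31 to 1.6), DUSP7 at 1.24 (1.13 to 1.36) and the EGR corepressor NAB2 at 1.3 (1.08 to 1.55). ERRFI1, an EGF receptor inhibitor, stood at 0.683 (0.651 to 0.717).

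Delayed early genes, which follow the immediate early wave, were mixed. Of 20 measured, 2 were lower, against 1.52% of all compared loci, none was higher, and the median was -0.10. The 2 were SPRY4 and DUSP6, which are also in the feedback list. Of the list's members with at least 5 CPM, 7 had intervals below 1 and 7 above 1, against 22.9% and 24.3% of all compared loci. The neurosecretory gene VGF was at 29.3, 43.4, 54.4 and 103 CPM, a ratio of 1.89 (1.73 to 2.07) with another leading model. The cytokine IL11 was at 137, 29.1, 79.4 and 139 CPM, a ratio of 1.75 (1.62 to 1.89). LIF, a related cytokine, went from 43.7 to 25.3 CPM between 30 and 360 min, at 0.578 (0.506 to 0.662), and the ephrin receptor EPHA2 from 191 to 123 CPM, at 0.642 (0.604 to 0.683).

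Among 14 NF-kB and cytokine genes 3 were lower, against 1.52% of all compared loci, none was higher, and the median was -0.50. The chemokine CXCL8 was at 0.958, 0.767, 7.03 and 2.36 CPM and 2.98-fold lower (1.99 to 4.62). IRAK2, a kinase of interleukin-1 signalling, was at 5.73, 9.94, 7.45 and 2.53 CPM and 2.95-fold lower (2.02 to 4.56). NFKBIZ, an atypical inhibitor of NF-kB, was at 11.4, 18.5, 32 and 9.8 CPM and 3.27-fold lower (2.68 to 3.99) as a locus, but with annotated transcripts alone its log2 ratio was -0.11. The list's direction depended on how transcripts were counted: its median was 0.075 with annotated transcripts summed and 0.35 among the 7 members with the same leading model.

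Targets of p53 are the genes known best from DNA damage by doxorubicin. Of 29 measured, 1 was lower, against 1.52% of all compared loci, none was higher, and the median was -0.20. The interval lay below 1 in 16, against 22.9% of all compared loci, and above 1 in 1. GDF15, a secreted stress cytokine (ENSG00000130513, chromosome 19, 18374731 to 18389176), was at 4.51, 15.3, 15 and 6.5 CPM and 2.31-fold lower (1.79 to 2.99). It was about as high at 10 as at 30 min and at 360 min had come most of the way back to the untreated level. CDKN1A, the p21 inhibitor of the cell cycle (ENSG00000124762, chromosome 6, 36676460 to 36687339), was at 193, 261, 278 and 204 CPM, a ratio of 0.734 (0.699 to 0.771) that was not called. GADD45A stood at 0.531 (0.494 to 0.571) and the death receptor FAS at 0.634 (0.526 to 0.766). FAS and GADD45A were also highest at 30 min.

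The integrated stress response and unfolded protein list had 2 of 27 members lower, against 1.52% of all compared loci, and none higher, with a median of -0.25. The interval lay below 1 in 19, against 22.9% of all compared loci, and above 1 in 3. PPP1R15A (GADD34), the phosphatase subunit that restores translation after stress, was at 61.8, 62.3, 158 and 76.5 CPM and 2.06-fold lower (1.91 to 2.22). The other called member was ATF3. The cystine transporter SLC7A11 was at 91.9, 86.2, 211 and 119.6 CPM and the amino acid transporter SLC7A5 at 59.7, 69.3, 125 and 75.3 CPM, with ratios of 0.568 (0.534 to 0.603) and 0.602 (0.557 to 0.651). Both were highest at 30 min and short of the 2-fold rule.

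Targets of serum response factor and YAP had 1 of 18 members lower, against 1.52% of all compared loci, and none higher. This was the smooth muscle gene CNN1, at 51.6, 31.6, 62.9 and 31.4 CPM and 2.0-fold lower, at the edge of the rule. The interval lay below 1 in 12 of the 18, against 22.9% of all compared loci, and above 1 in 2, with a median of -0.16. AMOTL2 was just outside the rule at 0.505 (0.482 to 0.529), from 393 to 198 CPM. ANKRD1, a stress gene of heart muscle, was at 400.0, 440.2, 964 and 616 CPM, a ratio of 0.639 (0.622 to 0.657). The natriuretic peptide gene NPPB, of the cardiomyocyte list, was likewise highest at 30 min, at 37.4, 54.6, 124 and 62.1 CPM, with a ratio of 0.503 (0.463 to 0.547) just outside the rule.

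Lower genes, 1.52% of all compared loci, were also found in other lists. In the circadian list (2 of 16, median -0.07) these were the output factor TEF, at 13, 26.3, 22.2 and 7.51 CPM, and NR1D1, at 5.09, 25.1, 14 and 5.35 CPM. Both had been higher at 10 min than at 30 min. Among FOXO targets and genes of growth factor withdrawal (2 of 22, median -0.21) they were BCL2L11, which encodes the pro-apoptotic BIM protein, at 10.9, 7.06, 10.8 and 2.36 CPM, and FOXO4, at 8.51, 18.2, 9.94 and 4.78 CPM. BCL2L11 is uncertain, since 10.9% of its exon bases overlap MIR4435-2HG on the other strand and its leading model differed. The glucocorticoid target list (2 of 9, median -0.52) held DUSP1 and SGK1, the Krüppel-like list (2 of 14) KLF2 and KLF6, and the apoptosis list (1 of 21) BCL2L11, all counted above in other lists. The hypoxia and glycolysis list (23 measured, median -0.10) had none lower, but the interval lay below 1 in 11 members, against 22.9% of all compared loci. Among these were ENO2 at 0.648 (0.61 to 0.689) and NDRG1 at 0.591 (0.565 to 0.618).

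Outside the lists, the genes with the largest falls were sought among those that passed both as a locus and as summed annotated transcripts. There were 127 such lower genes and 104 higher ones, and the 20 in each direction with the largest fold at the bound nearest to 1 were examined, with at least 10 CPM in the higher library. Of the 20 lower genes 13 had their highest level at 30 min, which the choice by this library favours, and 10 had the same leading model in both libraries. YTHDF2, a reader of m6A-marked RNA, was at 18.8, 13.9, 73 and 19.8 CPM, TIMP2, an inhibitor of matrix metalloproteinases, at 163, 216, 445 and 152 CPM and the Mediator subunit MED18 at 5.37, 4.55, 17.8 and 4.67 CPM. These 3 were highest at 30 min, but YTHDF2 and TIMP2 had another leading model at 360 min. CD274, which encodes PD-L1, was at 6.05, 6.71, 14 and 3.32 CPM, and its leading model did not differ.

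Another 5 lower genes were lowest at 360 min, and all but FSTL3 were not highest at 30 min. LPCAT2, a lysophosphatidylcholine acyltransferase (ENSG00000087253, chromosome 16, 55508998 to 55586670), was at 12.2, 16.4, 10.6 and 0.476 CPM and 22.3-fold lower (10.8 to 66.9), with the same leading model. TMOD2, a cap of actin filaments, was at 9.31, 12.4, 10.5 and 2.64 CPM, and FAM217B at 19.1, 8.74, 15.7 and 2.66 CPM. FSTL3, a secreted inhibitor of activin (ENSG00000070404, chromosome 19, 676365 to 683399), was highest at 30 min, at 287, 244, 346 and 123 CPM and 2.82-fold lower (2.66 to 2.98), below all 3 earlier libraries. In ZNF264, a zinc finger gene, the level was 18.3, 18.6, 14.5 and 3.22 CPM, with another leading model.

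The remaining lower genes of the 20 were less certain. SNX22, a sorting nexin, went from 11.7 to 0.348 CPM between 30 and 360 min with another leading model and was below 1 CPM at 0 and 10 min. MXI1, an antagonist of MYC, was at 17, 41.1, 30.8 and 7.68 CPM, again with another leading model. ATP6V0E2 and PLLP overlap opposite-strand genes over 12.8% and 19.9% of their exon bases, and EEF1A1P11 is a processed pseudogene with near copies. They were 3.66-fold, 3.61-fold and 4.81-fold lower.

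Of the 20 leading higher genes 13 had their lowest level at 30 min, which the choice by this library favours. None of the 20 is in the immediate early list, whose 42 measured members are few among the 10386 compared named loci. NSMCE3, a subunit of the SMC5/6 complex of DNA repair (ENSG00000185115, chromosome 15, 29264992 to 29269829), was at 34.5, 26.9, 3.02 and 38.8 CPM and 12.8-fold higher (9.41 to 18.2). Its 30 min library stood far below the other 3. B2M, the beta-2-microglobulin of MHC class I molecules (ENSG00000166710, chromosome 15, 44711487 to 44718877), was at 320.1, 279, 75.3 and 266 CPM and 3.54-fold higher (3.3 to 3.79). Of B2M's annotated counts, ENST00000349264, annotated as a target of nonsense-mediated decay, held 9.15% at 30 min and 61.2% at 360 min. The coding transcript ENST00000558401 held 66.2% and 33.1%, so it differed by less than the gene. MDM4, an inhibitor of p53, was at 16.9, 17.4, 2.93 and 15.4 CPM, TMEM164 at 95.2, 31.7, 17.5 and 76.5 CPM and FBXO34, an F-box protein, at 13.7, 31, 3.64 and 27.3 CPM. Of these, TMEM164 and FBXO34 kept their leading model, and NSMCE3, B2M and MDM4 did not.

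DAG1 and ADNP2 had another pattern, high at 10 and 360 min and low at 0 and 30 min. DAG1, which encodes dystroglycan, the link between matrix and cytoskeleton (ENSG00000173402, chromosome 3, 49468703 to 49535618), was at 21.5, 204, 51.7 and 231 CPM and 4.46-fold higher (4.11 to 4.84). ADNP2, a homeobox zinc finger gene, was at 7.87, 45.9, 12.3 and 55.3 CPM and 4.5-fold higher (3.8 to 5.35). Both changed their leading model. The related ADNP was at 55.3, 76.9, 28.3 and 82.7 CPM, 2.92-fold higher (2.6 to 3.29), with the same model.

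TSN, GCNT1, B3GALT5 and DDIT4 had their highest level of the 4 libraries at 360 min. TSN, which encodes the nucleic acid binding protein translin (ENSG00000211460, chromosome 2, 121737103 to 121767853), was at 15.3, 8.44, 16.6 and 55 CPM and 3.31-fold higher (2.85 to 3.85), with an unchanged leading model. GCNT1, an O-glycan branching enzyme, was at 33.3, 8.51, 18 and 57.9 CPM, and B3GALT5, a galactosyltransferase, at 9.42, 5.46, 8.7 and 29 CPM. DDIT4 (REDD1), an inhibitor of mTORC1 known from hypoxia and stress, was at 101, 116, 75.1 and 159 CPM and 2.12-fold higher (1.97 to 2.29), the only called gene of the hypoxia list. The zinc finger genes ZNF260 and ZNF518A, the corepressor RCOR1, CCDC137 and GMFB were 5.33-fold, 3.59-fold, 3.17-fold, 3.3-fold and 3.03-fold higher, and their 360 min levels were within 1.5-fold of untreated cells. ZNF503-AS2 is antisense to ZNF503, and SLC39A1 overlaps a same-strand gene over 60.8% of its exon bases, so both are uncertain.

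**Figure D3:**
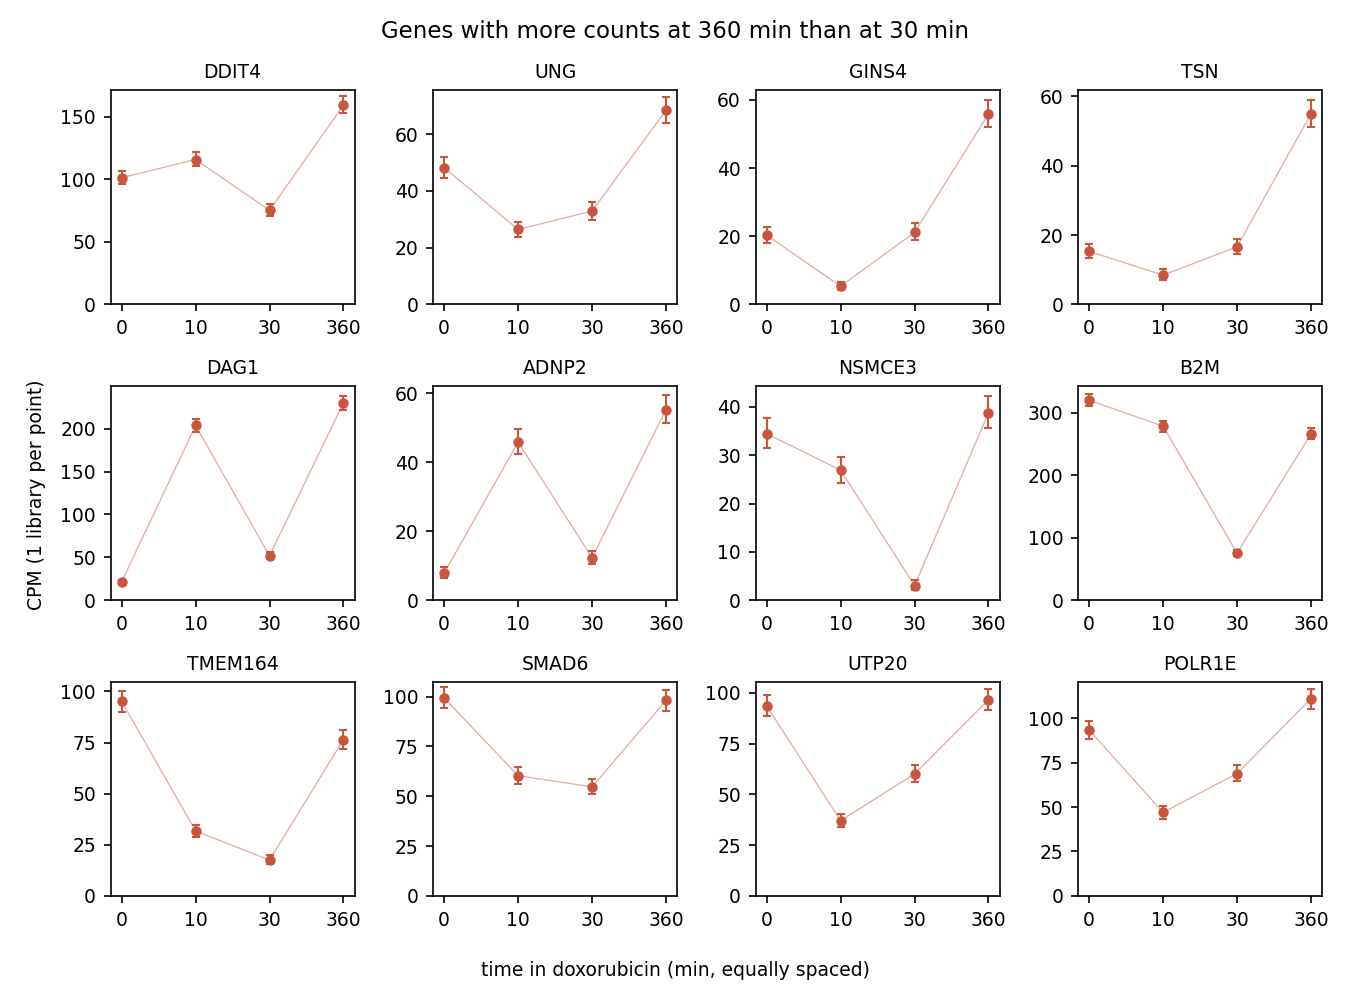
Level in CPM of 12 genes with more counts at 360 than at 30 min, by time in doxorubicin (0 is untreated, times equally spaced, each axis from 0). Points are single libraries with 95% exact Poisson counting intervals. DDIT4, UNG, GINS4 and TSN are highest at 360 min, DAG1 and ADNP2 are high at 10 and 360 min, and SMAD6, UTP20 and POLR1E are short of the 2-fold rule.

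Some groups had ratios above 1 in most members, but by less than 2-fold. Ribosome biogenesis covers RNA polymerase I and the factors that process and assemble ribosomal RNA. None of its 26 members with a locus of their own was called, but all 26 had intervals above 1, against 24.3% of all compared loci, with a median of 0.40 and ratios of 1.11 to 1.90. Of the 4 members measured only by annotated transcripts, NOP56, NOP58 and GNL3 had intervals above 1 and FBL, at 0.961 (0.894 to 1.03), did not. These 4 were named after their values were seen. The polymerase I subunit POLR1E was at 93.3, 47, 68.8 and 111 CPM, a ratio of 1.61 (1.48 to 1.75). The processing factors UTP20 and NOP16 were at 93.7, 37.1, 60.1 and 96.6 CPM and at 58.2, 24, 39.3 and 59.6 CPM. In these 3 genes the level was lowest at 10 min, and 360 min was close to untreated. POLR1G and POLR1B had the ratios 1.9 (1.64 to 2.22) and 1.51 (1.32 to 1.73) with another leading model, and POLR1G is uncertain because 43.5% of its exon bases overlap a gene on the opposite strand.

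Most TGF-beta and BMP pathway genes also had ratios above 1. None of 21 was called, the interval lay above 1 in 15 of 20 with at least 5 CPM, against 24.3% of all compared loci, and below 1 in 2, and the median was 0.36. SMAD6, an inhibitory SMAD of BMP signalling, was at 99.3, 60.3, 54.7 and 98.1 CPM, a ratio of 1.79 (1.64 to 1.96). The BMP target ID3 was at 473, 236, 275 and 403 CPM and the transcription factor ATOH8 at 96.2, 39.6, 50.6 and 79.9 CPM. SMAD6, ID3 and ATOH8 were lower at 10 and 30 min than in either the untreated or the 360 min library. SMURF1, a ubiquitin ligase for SMADs, stood below 1 at 0.642 (0.59 to 0.698), with another leading model and an opposite-strand overlap of 11.7%.

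Genes of G1/S and DNA replication had 2 of 35 members higher, against 1.15% of all compared loci, and none lower, with a median of 0.19. The interval lay above 1 in 23, against 24.3% of all compared loci, and below 1 in 1. UNG, the uracil DNA glycosylase, was at 48.2, 26.4, 32.9 and 68.5 CPM and 2.08-fold higher (1.86 to 2.33). GINS4, a subunit of the replicative helicase, was at 20.3, 5.32, 21.1 and 55.8 CPM and 2.64-fold higher (2.3 to 3.03). It is uncertain, with another leading model and an opposite-strand overlap of 21.2%. The histone mRNA binding protein SLBP stood at 1.55 (1.43 to 1.69), cyclin E2 (CCNE2) at 1.5 (1.27 to 1.8) and the ribonucleotide reductase subunit RRM2 at 1.38 (1.33 to 1.44). The 31 G2/M and mitosis genes, by contrast, had a median of 0.0032 and no member called as a locus, although CENPA, a centromere histone measured only by annotated transcripts and named for this, was lower at 0.494 (0.411 to 0.596).

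Genes of topoisomerases, of which the drug traps topoisomerase II, and genes of double-strand break repair were not called as loci. TOP2A, the topoisomerase II of dividing cells (ENSG00000131747, chromosome 17, 40388516 to 40417950), was at 595, 265, 613 and 647 CPM, a ratio of 1.05 (1.02 to 1.09). TOP1 was at 139, 97.6, 116 and 142 CPM, a ratio of 1.23 (1.15 to 1.31). None of 7 topoisomerase and phosphodiesterase genes (median 0.18) and none of 29 double-strand break repair genes (median 0.045) was called as a locus, while 1 of 3 further repair genes measured only by annotated transcripts was higher. Among the loci XRCC2 stood at 1.43 (1.28 to 1.6) and NBN at 1.4 (1.26 to 1.56). Of 31 sterol and fatty acid synthesis genes none was called either, and the median was 0.10.

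**Figure D4:**
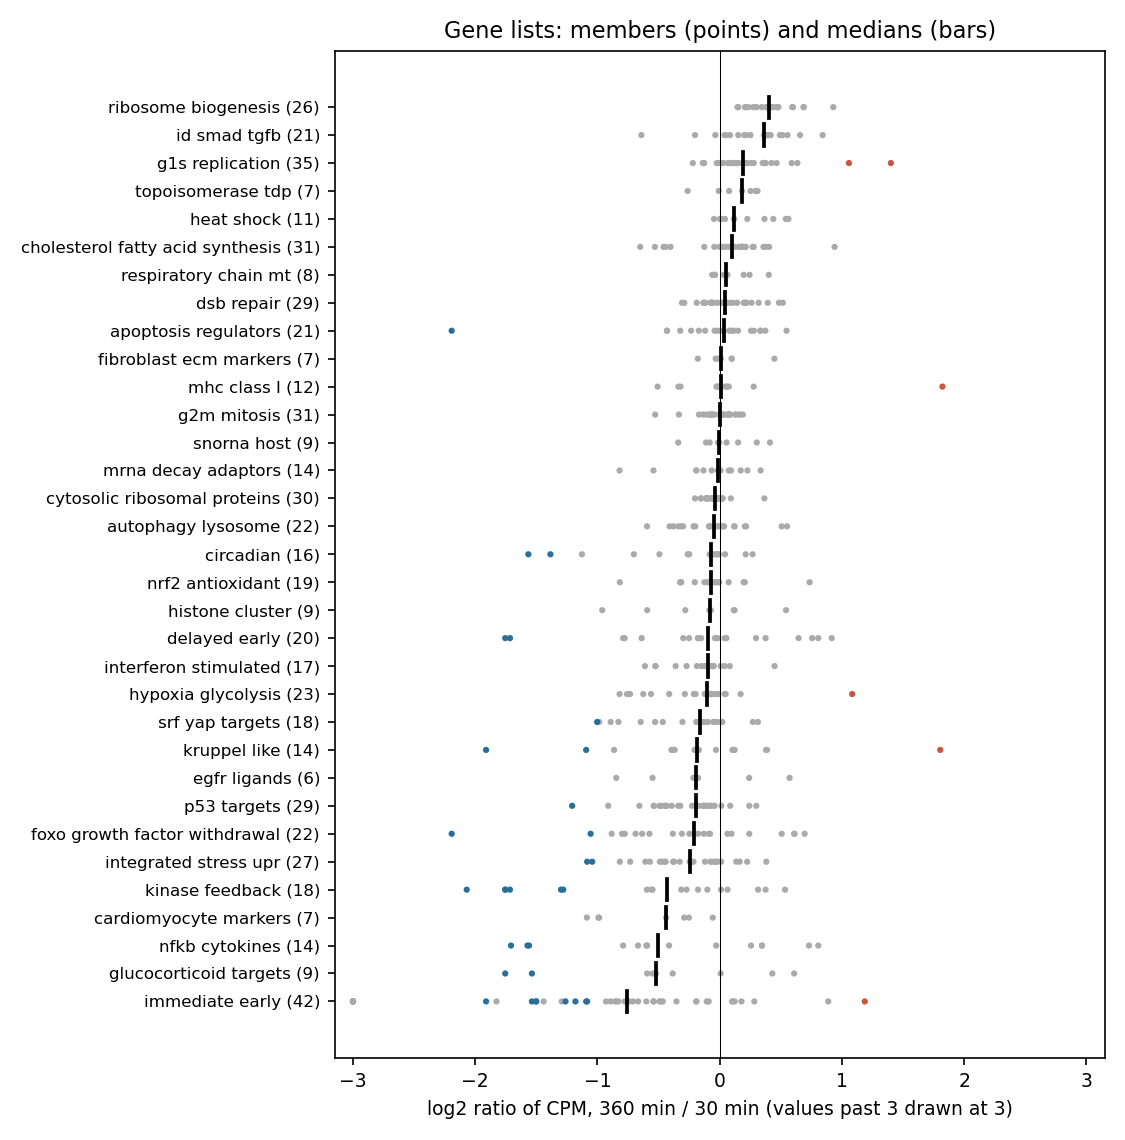
Log2 ratio of CPM (360 min over 30 min) of the measured members of each gene list with at least 5 of them (number in brackets). Grey points were not called, blue were lower, red were higher, and black bars are medians. Immediate early genes lie lowest, at a median of -0.76, and ribosome biogenesis highest, at 0.40.

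Heat shock genes encode chaperones and their partners. Of 11 measured members with a locus of their own none was called, the median was 0.12, and the chaperones DNAJA1 and HSPH1 stood at 1.45 (1.39 to 1.53) and 1.29 (1.23 to 1.36). HSPA1A and HSPA1B, nearly identical genes for the inducible HSP70, have no locus of their own and were looked at for this reason after their values were seen. By annotated transcripts HSPA1A was at 6.10, 33.0, 166.3 and 14.4 CPM, and HSPA1B at 0.616, 0.239, 0.0205 and 224.9 CPM. Their sum was 6.72, 33.3, 166.3 and 239.3 CPM, a ratio of 1.44 (1.36 to 1.52) for 360 against 30 min. The opposite differences of the pair are therefore uncertain, and the sum was highest at 360 min.

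Which transcript model held a gene's reads changed often between the libraries. The most counted model differed at 2324 of 10386 compared named loci (22.4%), at 60 of the 123 higher loci (48.8%) and at 48 of the 145 lower loci (33.1%). Among the 8062 loci with the same leading model 63 were higher (0.781%) and 97 lower (1.2%), 160 in all (1.98%), and among those with another model 60 were higher (2.58%) and 48 lower (2.07%). Where both leading models were annotated, the one at 360 min was longer at 19 and shorter at 23 of 42 higher loci, and longer at 15 and shorter at 23 of 38 lower loci. When genes were instead compared by the sum of their annotated transcripts, 387 of 11776 genes were higher (3.29%) and 423 lower (3.59%), 810 in all (6.88%).

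**Figure D5:**
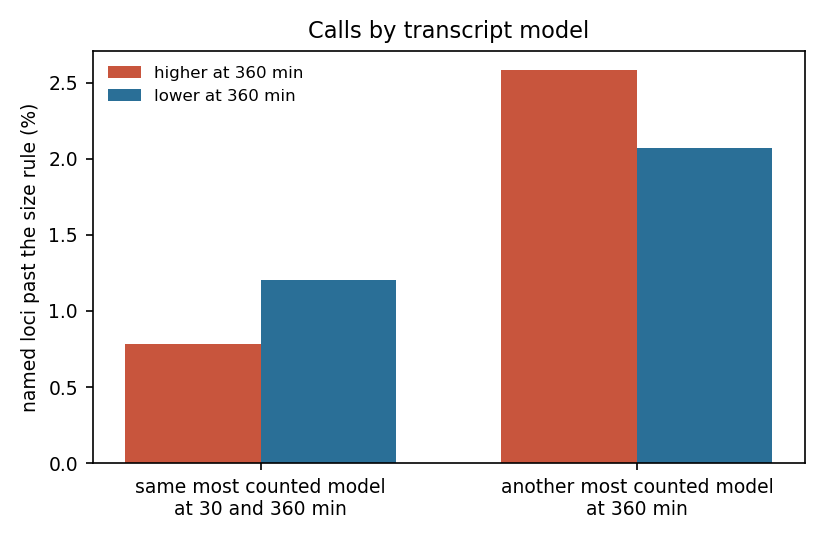
Share of named loci called higher (red) or lower (blue) at 360 min, in percent, for the 8062 loci whose most counted transcript model was the same in both libraries and the 2324 loci where it was not. Both shares are larger where the model differed, 2.58% and 2.07% against 0.781% and 1.2%.

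As loci, 37 named genes were called (19 higher and 18 lower) that were not called in the same direction by annotated transcripts, and the 8 with the largest fold at the bound nearest to 1 were examined. SP1, a zinc finger factor of many promoters, was at 23.4, 81, 25.1 and 87.8 CPM as a locus, 3.49-fold higher (3.1 to 3.95), yet its annotated transcripts had a log2 ratio of -1.91. CHP1, a calcineurin-like protein, was at 31.9, 41, 29.5 and 128 CPM as a locus, with -2.0 by annotated transcripts. For BEST1 the locus was 11.6-fold higher against -0.83, and for TUBA1B-AS1, which overlaps TUBA1B over 80.2% of its exon bases, 3.21-fold higher against -4.89. In all 4 the most counted model at 360 min was assembled and not annotated, and BEST1 has an opposite-strand overlap of 14.2%. MIR3936HG, CATSPER2P1, NFKBIZ and LINC02989 were lower as loci and had log2 ratios of -0.19, -1.5, -0.11 and -0.38 by annotated transcripts.

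Switches between annotated transcripts of 1 gene were also large. Of 7342 genes with at least 20 CPM in both libraries, 485 (6.61%) had a transcript whose share of the gene's annotated counts differed by at least 50 percentage points, and the median largest difference was 6.01 points. In the cyclin gene CCNA2, ENST00000274026 held 99.2%, 0.272%, 0.341% and 99.7% of annotated counts at 0, 10, 30 and 360 min, and ENST00000618014 held nearly all of the rest. In the calcium pump gene ATP2B4, ENST00000341360 held 89.1% at 30 min and 0% at 360 min, and ENST00000357681 took 99.0% at 360 min. In NOMO1 the model ENST00000620755 held 93.2% at 30 min and 0% in the other 3 libraries. Among the lower genes, ENST00000542507 of YTHDF2 held 89.8% at 30 min (87.7% to 91.6%) and 0.556% at 360 min. CCNA2 as a gene was at 234.7 and 257.04 CPM at 30 and 360 min by annotated transcripts.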

How the data were processed

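Poly(A) RNA of AC16 cells was sequenced at 4 times, 1 library each. Per the labels' protocols, RNA was purified with Trizol and poly(dT) beads and reverse transcribed with SmartScribe. HISAT2, DESeq2 and GRCh38 are named, without versions, per the submitters' processing notes. How reads were counted, with which annotation and whether by strand, is not given in the sources used here. Tables deposited by the authors hold estimated counts per locus and per transcript, as whole numbers not divided by length. Of low values (1 to 24) of single-transcript genes, 30.5% of 6127 were multiples of 4 (even spacing gives 25%), so 1 read pair was taken as about 4 counts. This worth is inferred and not settled, and the width of every interval depends on it. Intervals and the floor for 0 counts (3 read pairs, 12 counts) used counts divided by 4, and cover counting error only. The libraries then hold 13789153 to 14218970 read pairs.

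Loci took a gene's name where their counts matched those of its GENCODE 29 transcripts (15289 by 1 gene, 698 by a gene with at least 95% of counts, 25484 with their own identifier), which covers 87.4% of counts. Assembled models hold 11.1%. Of 215876 annotated transcripts, 197268 are in GENCODE 29. CPM were scaled by TMM in edgeR 4.0.16 under R 4.3.3 (factors 0.991, 1.03, 0.988 and 0.990). Ratios carry 95% exact conditional binomial (Clopper-Pearson) intervals (SciPy 1.17.1, Python 3.11.15), and the size rule was tested on simulated data. The simulation held counting error only, at the same worth of a read pair, so it cannot check that worth or the spread between cultures. With 1 library per time no test was run.

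The comparison, the gene lists (36) and the naming rule were chosen with earlier results of these data known. Named are the 20 genes per direction that pass as locus and as summed annotated transcripts, up to 5 members per list (all members of the immediate early, delayed early and feedback lists), 8 genes (largest fold at the nearer bound) of the 37 called as loci but not in the same direction by annotated transcripts, up to 10 with the largest transcript switches, and EGR1, FOS, TOP2A, TOP1, CDKN1A and GDF15. Genes antisense to another, with near copies or with at least 10% shared exon bases are called uncertain. Some genes that meet the rule are not reported here. RND3, RCAN1, HSPA1A, HSPA1B, FBL, NOP56, NOP58, GNL3 and CENPA were named after their values were seen. RefSeq (GRCh38.p14) gave promoter windows for 8234 compared genes. Alternatives were total counts or DESeq2 1.42.0 size factors in place of TMM, annotated transcripts in place of loci, loci with the same leading model, no or a 20 CPM minimum, undivided counts and a 1.5-fold rule. Each unit is 1 library, so no spread between cultures enters any value.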

Additional observations from a re-analysis of the deposited data

How the results depend on the processing

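No paired analysis was possible because each time has 1 library. Total counts, DESeq2 size factors and undivided counts left the numbers of higher and lower loci within 1.5 times of 135 and 179. With annotated transcripts summed they were 387 and 423, among loci with the same leading model 63 and 97, with no CPM minimum 950 and 985, with a 20 CPM minimum 80 and 70, and with a 1.5-fold rule 481 and 585. Of 33 list medians, that of the NF-kB list changed sign, from -0.50 to 0.075 with annotated transcripts and to 0.35 with the same leading model, and the others stayed within the median bounds of their members' intervals under each alternative. Annotated transcripts turned the log2 ratio of 6 named genes: BEST1 (-0.83), CHP1 (-2.0), H2AC6 (-1.0), MKI67 (-1.0), SP1 (-1.91) and TUBA1B-AS1 (-4.89). H2AC6 and MKI67 had not been called as loci, and the cause was not tested. CNN1 fell short of the rule with DESeq2 size factors. Depth limits genes below 5 CPM: the interval of the ratio of NR4A2 ran from 0.207 to 0.617.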
